A study of Mus musculus with 15 samples.

Results

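Chromatin-associated RNA from murine macrophages was compared between 2 h and 1 h after lipopolysaccharide (LPS), to describe what starts and what is shut off in that hour. The comparison used 6 of the 15 libraries of the series, chosen by their labels: 3 at 2 h and 3 at 1 h. The macrophages were grown in culture from bone marrow of C57BL/6 mice for 7 days in medium containing L929-conditioned medium, and the LPS dose was 10 ng/ml in both groups. The other 9 libraries, of untreated cells and of cells given LPS for 30 min or 4 h, with 3 in each group, entered the same fit and were used to place the changes in time. No genetic change or second treatment is given in the labels. The labels do not say whether replicates are separate mice or cultures, so the p-values measure the spread between these libraries only. The labelled cell type was not checked against marker genes, because the identifiers are those of Ensembl transcripts, and the reference table used here pairs none of them with a gene symbol. Results are therefore given for transcripts, by number, level and time course.

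LPS, a component of the outer membrane of Gram-negative bacteria, is sensed by macrophages through Toll-like receptor 4, which activates NF-kB, AP-1 and interferon regulatory factors. Primary response genes are switched on by factors already present in the cell and need no new protein. Many of them encode transcription factors, cytokines and feedback inhibitors, and many are transcribed for a short time. Secondary response genes need proteins made in the first wave, such as type I interferon, which acts through STAT proteins, or have promoters that need chromatin remodelling. RNA that is still bound to chromatin contains many transcripts in the making, so its level tends to follow transcription more closely than the level of total RNA does.

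The 6 libraries held 8590142 to 10493492 estimated counts. Between 99.4% and 99.6% of these fell on the 46186 transcripts that passed the filter on low counts. Levels are given in CPM, counts relative to the scaled library size, with no correction for transcript length. The most abundant transcript of the series took very different parts of the libraries. Its share was 11.1%, 29.2% and 12.3% of the estimated counts in replicates 1, 2 and 3 at 2 h and 11.0%, 27.0% and 27.7% at 1 h. Shares of counts below are therefore shares of the counts of all other tested transcripts. Same-numbered libraries at 2 h and 1 h deviated together from their group means (correlations of 0.339 to 0.428 across transcripts in the 3 pairs), and the replicate number was a term of the fit.

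More transcripts started or rose in this hour than were shut off or fell. Of the 46186 transcripts tested, 1242 were higher at 2 h than at 1 h (2.69%) and 701 were lower (1.52%; edgeR quasi-likelihood test, Benjamini-Hochberg adjusted p under 0.05). Without the replicate number in the fit, 150 were higher and 45 lower. Those that rose made up 63.9% of the calls, against 53.9% with scaling to library size without the most abundant transcript and 53.1% with DESeq2. Both directions together were 4.21% of all tested, and 8216 transcripts (17.8%) had an unadjusted p under 0.05. The median rise was 2.28 on the log2 scale, or 2.26 where a transcript without counts at 1 h was given a bound of 3 counts per library. The median log2 change of those that fell was -1.97 (-1.95 at the same kind of bound). At least 4-fold changes were found for 772 of those that rose and 333 of those that fell, and at least 16-fold changes for 169 and 52. Fold changes under 2-fold were rare among the calls, with 22 among those that rose and 13 among those that fell. They were found for 28926 of the 46186 tested. Small changes pass this test less readily, so their rarity among the calls was favoured by the choice. The median log2 fold change over all tested transcripts was 0.05. In these bulk samples, a change in the share of cells of a type and a change in RNA per cell cannot be told apart.

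**Figure D1:**
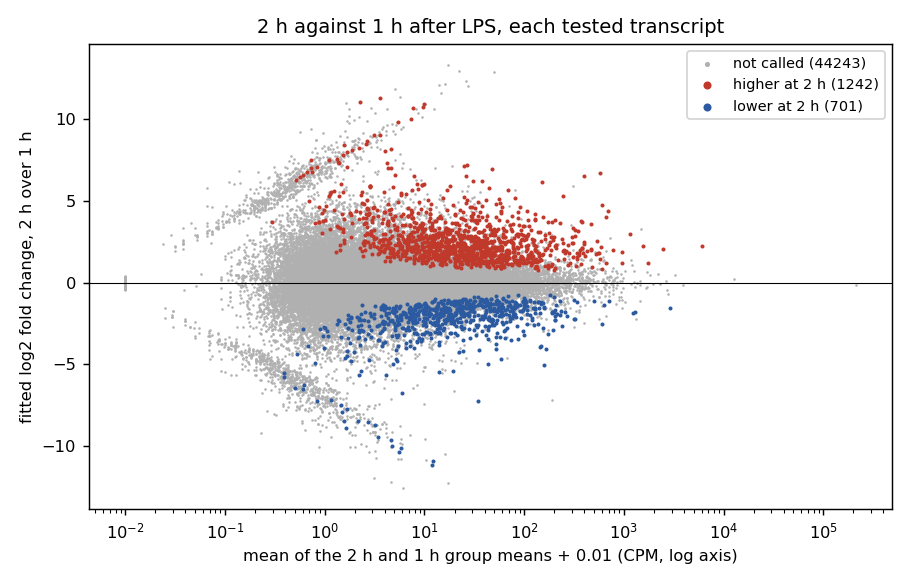
Fitted log2 fold change (2 h over 1 h) of each of the 46186 tested transcripts against the mean of its group means in CPM on a log axis, with 0.01 added. Red points are the 1242 transcripts higher at 2 h, blue points the 701 lower at 2 h and grey points those not called. Diagonal bands at low levels hold transcripts at 0 in all libraries of a group, whose fitted value depends on the prior count.

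Transcripts that rose held a larger share of the other counts at 2 h than at 1 h, and those that fell a smaller one. Transcripts called higher held 16.5%, 16.0% and 11.6% of the other counts in replicates 1, 2 and 3 at 2 h, against 4.60%, 4.09% and 3.17% at 1 h. The lowest 2 h library, replicate 3, lay above the highest 1 h library. Transcripts called lower held 1.76%, 1.68% and 1.87% of the other counts at 2 h, against 7.98%, 5.95% and 5.75% at 1 h. The 2 h libraries lay closer together in this set than the 1 h libraries did. These sets were called from the same libraries, so their shares had to differ and no test was made of them.

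The summed level, in counts not corrected for length, was spread over many transcripts. The 10 most abundant of the 1242 at 2 h held 21.8% of the summed mean level of the set, and the 100 most abundant held 56.1%. Among the 701, the 10 most abundant at 1 h held 26.3% of their summed mean level at that time and the 100 most abundant 62.7%. A mean of at least 100 CPM was reached by 251 of the 1242 at 2 h, against 54 at 1 h. Of the 701, 17 reached that level at 2 h, against 118 at 1 h. Means under 1 CPM were found for 1 of the 1242 at 2 h and for 183 at 1 h, and for 102 of the 701 at 2 h and for 3 at 1 h. Most of the changes started from, or ended at, a level above that.

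Complete absence at either time was uncommon, among the calls and among all tested transcripts. Among the 1242, 28 transcripts had no count in any 1 h library, as had 840 of the 46186 tested. Their levels at 2 h were at least 3.09-fold to at least 60.2-fold above the floor of 3 counts per library (median at least 9.82-fold), and 5 of them averaged 10 CPM or more. Of the 28, 3 also had no count in any untreated or 30 min library, as had 32 of the 840. Of the 701, 22 had no count in any 2 h library, as had 901 of the 46186 tested. These 22 were at least 2.32-fold to at least 74.3-fold lower (median at least 10.1-fold). There were still no counts at 4 h for 7 of these 22, and for 234 of the 901. Floors and bounds cover counting error only.

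Libraries of the groups did not overlap for most of the calls. All 3 libraries at 2 h lay above all 3 at 1 h for 1101 of the 1242 transcripts, against 9.64% of all tested. They lay below for 630 of the 701, against 8.16% of all tested. Compared pair by pair within a replicate number, 1241 of the 1242 were higher in all 3 pairs, against 21.9% of all tested. Of the 701, 699 were lower in all 3 pairs, against 19.7% of all tested. The calls were made from these libraries, so this describes them and adds no evidence.

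A pair of transcripts carried the largest rises among those with at least 10 CPM, groups that did not overlap and counts in every 1 h library. ENSMUST00000023655.12 (3385 nt) stood at 1634, 1347 and 448 CPM in replicates 1, 2 and 3 at 2 h, against 10.0, 32.5 and 0.578 CPM at 1 h. Replicate 3 was the lowest at both times, and all 2 h libraries lay far above all 1 h libraries. Its fitted log2 fold change was 6.69 (SE 1.06, edgeR adjusted p = 0.00897), a 103-fold rise. It averaged 16.9 ± 17.3 CPM in untreated cells, 7.58 ± 8.11 at 30 min and 2135 ± 939 at 4 h (SD, n = 3). Its log2 fold change at 1 h against untreated cells was -0.20 (SE 0.88, edgeR adjusted p = 0.939).

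ENSMUST00000113768.7 (2695 nt) stood at 1162, 1044 and 159 CPM in replicates 1, 2 and 3 at 2 h, against 28.8, 10.3 and 0.462 CPM at 1 h. Here too replicate 3 was lowest at both times and the groups were apart. The log2 fold change was 6.56 (SE 1.16, edgeR adjusted p = 0.0145). Its mean was 14.1 ± 22.4 CPM in untreated cells, 16.1 ± 21.6 at 30 min and 2308 ± 1042 at 4 h (SD, n = 3). In the libraries that the 2 h against 1 h comparison did not use, both transcripts were higher at 4 h than at 30 min, by 8.93 on the log2 scale for ENSMUST00000023655.12 (edgeR adjusted p = 0.00104) and by 8.46 for ENSMUST00000113768.7 (edgeR adjusted p = 0.00211).

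The largest falls under the same conditions came from opposite starting points. ENSMUST00000171530.7 (1108 nt) stood at 0.335, 1.16 and 0.931 CPM in replicates 1, 2 and 3 at 2 h, against 36.3, 24.6 and 20.2 CPM at 1 h. All 1 h libraries lay more than an order of magnitude above all 2 h libraries. The log2 fold change was -5.50 (SE 1.06, edgeR adjusted p = 0.0203). By its means this transcript was transient: it averaged 1.98 ± 1.21 CPM in untreated cells, 67.3 ± 56.4 at 30 min and 1.72 ± 1.98 at 4 h (SD, n = 3). The 30 min libraries held 16.0, 128 and 58.2 CPM, and 30 min against untreated cells was not called (log2 4.94, SE 1.01, edgeR adjusted p = 0.0508). The transcript was higher at 1 h than in untreated cells (log2 4.18, SE 0.98, edgeR adjusted p = 0.0419). Its log2 fold change at 2 h against untreated cells was -1.32 (SE 0.97, edgeR adjusted p = 0.452).

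ENSMUST00000167320.7 (8803 nt) was instead present before LPS. It stood at 0.782, 0.643 and 1.10 CPM in replicates 1, 2 and 3 at 2 h, against 45.5, 21.3 and 45.2 CPM at 1 h. The groups did not overlap, and the spread was small at 2 h. Its log2 fold change was -5.39 (SE 1.07, edgeR adjusted p = 0.0232). It averaged 62.3 ± 20.9 CPM in untreated cells and 48.2 ± 41.3 at 30 min, and at 4 h it was listed with counts in 1 library only (0.385 CPM in replicate 2). The 30 min libraries differed widely, with 3.10 CPM in replicate 2. Its log2 fold change at 1 h against untreated cells was -0.90 (SE 0.88, edgeR adjusted p = 0.641). None of these 4 transcripts passed the test without the replicate number in the fit (edgeR adjusted p from 0.0519 to 0.202).

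**Figure D2:**
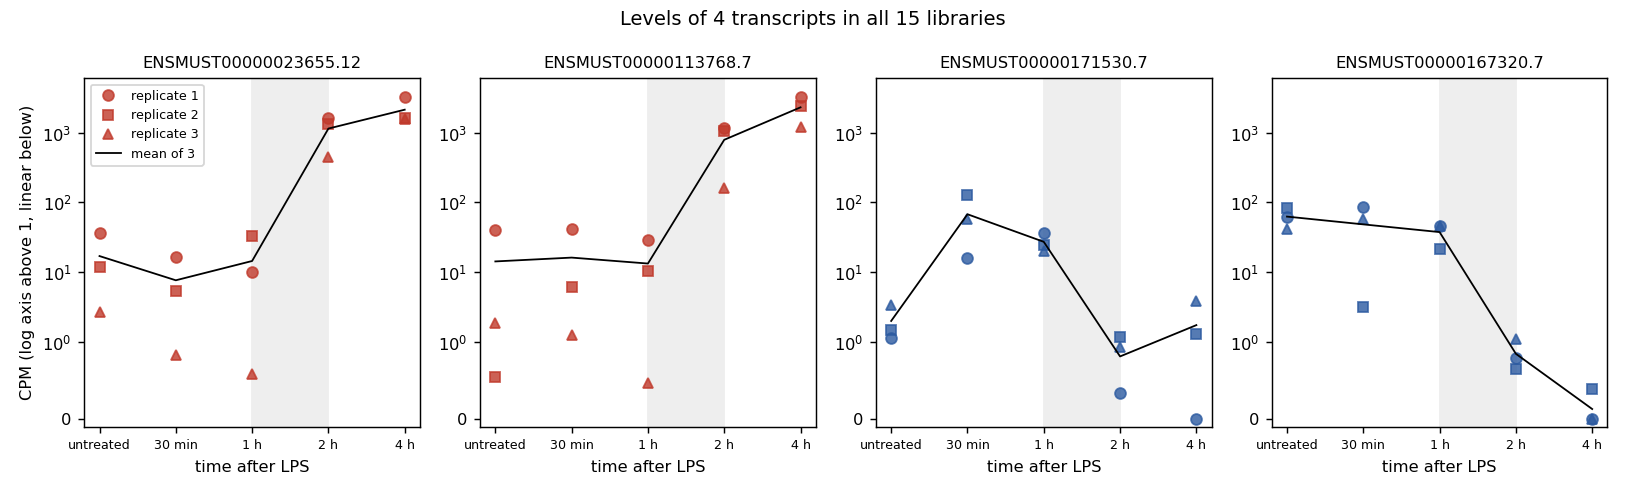
CPM of 4 transcripts in all 15 libraries against time after LPS, on an axis that is logarithmic above 1 and linear below. Symbols are replicate numbers, the line joins the means of 3 and the grey band marks the hour from 1 h to 2 h. ENSMUST00000023655.12 and ENSMUST00000113768.7 (red) averaged 1143 and 789 CPM at 2 h, against 14.3 and 13.2 CPM at 1 h, and ENSMUST00000171530.7 and ENSMUST00000167320.7 (blue) averaged 0.808 and 0.842 CPM at 2 h, against 27.1 and 37.3 CPM at 1 h.

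Most transcripts that rose were called higher than in untreated cells at 2 h and not yet at 1 h. The calls were sorted by their state against untreated cells in the same fit. These comparisons share the 1 h or 2 h libraries with the comparison of 2 h with 1 h, so the sorting is a description. At 2 h, 876 of the 1242 (70.5%) were called higher than in untreated cells, where 6.42% of all tested transcripts were. Of these, 826 (66.5% of the 1242) were not called higher at 1 h. Their median level was 46.7, 50.9 and 32.8 CPM in replicates 1, 2 and 3 at 2 h, against 8.71, 10.3 and 5.90 CPM at 1 h. It averaged 8.20 ± 1.91 CPM in untreated cells, 8.09 ± 2.16 at 30 min, and 58.1 ± 15.5 at 4 h (SD, n = 3). This form was set by how the 826 were chosen. At 1 h, 441 of them had an estimate above untreated cells and 385 below, 676 had a mean within 2-fold of the untreated mean, and 11 were called lower. Of the 46186 tested, 29853 had a 1 h mean within 2-fold of the untreated mean. The count of 826 was 276 to 555 without any 1 of the 6 libraries of 2 h and 1 h, 477 without untreated replicate 1 and 523 without untreated replicate 2.

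Some of the transcripts that rose were already raised before the hour. Of the 1242, 50 (4.03%) were called higher than in untreated cells at 1 h, a share near the 2.93% of all tested transcripts. Their median level was 99.3, 118 and 71.5 CPM at 2 h, against 19.9, 28.4 and 12.9 CPM at 1 h. It averaged 4.92 ± 1.35 CPM in untreated cells, 11.7 ± 3.7 at 30 min and 174 ± 80 at 4 h, so that each sampled time lay above the one before it. All 50 were also called higher at 4 h than in untreated cells, where 8.87% of all tested transcripts were. They were chosen against the same untreated libraries, which favoured this call. The count of 50 was 28, 10 and 16 without untreated replicate 1, 2 or 3, was 7 to 26 without any 1 of the 6 libraries of 2 h and 1 h, and was 32 without 30 min replicate 3 or 4 h replicate 1.

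A further group rose from a level called lower than in untreated cells. At 1 h, 75 of the 1242 were called lower than in untreated cells, where 0.97% of all tested transcripts were. Of these, 11 were called higher than in untreated cells at 2 h and are counted among the 826. The other 64 had a median level of 9.55, 9.90 and 7.66 CPM at 2 h, against 1.39, 1.56 and 1.33 CPM at 1 h. Their median was 7.37 ± 1.48 CPM in untreated cells, 3.43 ± 0.95 at 30 min and 12.1 ± 2.1 at 4 h. The 2 h mean lay within 2-fold of the untreated mean for 52 of the 64, and for 27153 of the 46186 tested. Both the low call at 1 h and the rise rest on the 1 h libraries, so a low 1 h mean was favoured by the choice. At 30 min, 3 of the 64 were called lower than in untreated cells, where 0.0888% of all tested were. The remaining 302 transcripts that rose were not called against untreated cells at either time. Their median level was 19.4, 22.1 and 14.8 CPM at 2 h, against 4.02, 3.97 and 3.58 CPM at 1 h, with 8.49 ± 0.88 CPM in untreated cells. All 302 had an estimate below untreated cells at 1 h, as did 751 of the 1242 and 24838 of the 46186 tested. A transcript that rose from above untreated cells would tend to be called at 2 h, so the choice favoured this for the 302.

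Part of the transcripts that fell came down from a raised level. Of the 701, 161 (23.0%) were called higher at 1 h than in untreated cells, where 2.93% of all tested transcripts were. Their median level was 14.1, 13.1 and 15.7 CPM in replicates 1, 2 and 3 at 2 h, against 81.9, 54.1 and 45.8 CPM at 1 h. It averaged 11.8 ± 1.6 CPM in untreated cells, 43.5 ± 12.0 at 30 min and 12.6 ± 1.4 at 4 h (SD, n = 3). At 2 h, 148 of the 161 were called neither higher nor lower than untreated cells, as were 41810 of the 46186 tested. Another 11 (6.83%) were still called higher, a share near the 6.42% of all tested. The other 2 (1.24%) were called lower, where 3.06% of all tested were. The 2 h mean lay within 2-fold of the untreated mean for 27153 of the 46186 tested transcripts and for 130 of the 161. Of the 5 groups, 1 h had the highest mean for 118 and 30 min for 43. The count of 161 was 70, 42 and 60 without untreated replicate 1, 2 or 3, was 20 to 82 without any 1 of the 6 libraries of 2 h and 1 h, and was 98 without 30 min replicate 3. A missing call at 1 h does not show that a transcript had not been raised. Over all 701, the estimate at 1 h was above untreated cells for 544, and 1 h had the highest mean for 369 and 30 min for 225. Over the 46186 tested, these counts were 21348, 7525 and 8282. The 1 h libraries made the calls of the 701 and the 161, so a high 1 h mean was favoured by the choice.

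A larger group fell below its untreated level. At 2 h, 321 of the 701 (45.8%) were called lower than in untreated cells, where 3.06% of all tested transcripts were. Of these, 319 (45.5% of the 701) had not been called higher at 1 h. Their median level was 4.36, 3.47 and 3.30 CPM at 2 h, against 25.0, 13.8 and 14.5 CPM at 1 h. It averaged 19.0 ± 4.0 CPM in untreated cells, 19.1 ± 4.7 at 30 min and 4.30 ± 0.86 at 4 h. The 1 h mean lay within 2-fold of the untreated mean for 29853 of the 46186 tested transcripts and for 271 of the 319. The count of 319 was 125, 142 and 188 without untreated replicate 1, 2 or 3, was 58 to 207 without any 1 of the 6 libraries of 2 h and 1 h, and was 184 without 30 min replicate 3. The other 221 transcripts that fell were called against untreated cells at neither time. They had a median of 6.70, 7.84 and 8.21 CPM at 2 h, against 31.9, 24.8 and 21.7 CPM at 1 h, with 13.9 ± 1.3 CPM in untreated cells.

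**Figure D3:**
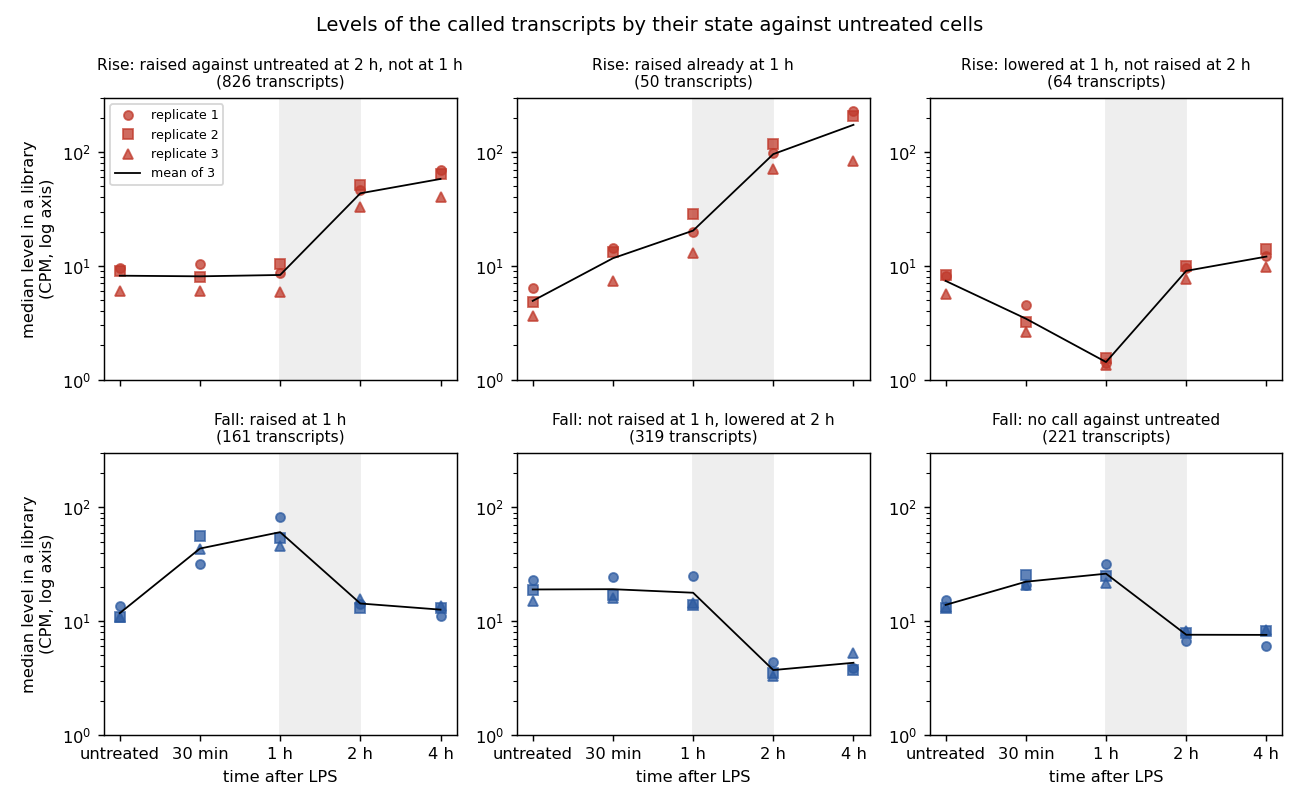
Median CPM over the transcripts of a class in each library, on a log axis, against time after LPS, for 3 classes of transcripts that rose (red) and 3 that fell (blue) between 1 h and 2 h (grey band). Symbols are replicate numbers and lines join the means of 3 libraries; the class of 826 averaged 43.5 CPM at 2 h, against 8.32 at 1 h, and the class of 161 averaged 14.3 CPM at 2 h, against 60.6 at 1 h. The classes were called from these libraries.

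Libraries of 30 min, 4 h and untreated cells were not part of the 2 h against 1 h contrast, so comparisons among them measure the same transcripts in other samples. Of the 1242 transcripts that rose, 986 (79.4%) were called higher at 4 h than at 30 min, where 6.79% of all tested transcripts were, and 6 were called lower. Of the 701 that fell, 449 (64.1%) were called lower at 4 h than at 30 min, where 5.59% of all tested transcripts were, and 8 were called higher. The spread and the replicate term were estimated in 1 fit over all libraries, and isoforms of 1 gene are not independent, so no p is given for these shares.

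More of the abundant transcripts were called at 4 h against 30 min, in both directions. The shares were therefore also read at matched level. Among transcripts with a mean of 10 to 100 CPM over the 6 libraries, 80.4% of the 723 that rose were higher at 4 h than at 30 min, against 13.1% of all tested at that level. At 3 to 10 CPM the shares were 76.9% and 6.73%, and at 100 CPM or more they were 90.6% and 26.1%. For transcripts that fell, 68.9% of 402 at 10 to 100 CPM were lower at 4 h than at 30 min, against 10.5% of all tested at that level. The difference from all tested transcripts was present at each of the 5 levels examined, down to means under 1 CPM, where 12 of 19 and 8 of 15 were called.

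The rise was mostly held at 4 h. Against untreated cells, 933 of the 1242 (75.1%) were called higher at 4 h, where 8.87% of all tested transcripts were. The 4 h mean exceeded the 2 h mean for 876 of the 1242, and for 22913 of the 46186 tested. It was at least 0.5 times the 2 h mean for 1157 of the 1242. Most of all tested transcripts (39031) also met this second mark. Tested directly, 40 of the 1242 (3.22%) were higher at 4 h than at 2 h, where 0.338% of all tested transcripts were. Another 22 (1.77%) were lower, where 0.491% of all tested were. These direct tests share the 2 h libraries with the calls. Of the 701 that fell, 303 (43.2%) were called lower at 4 h than in untreated cells, where 6.27% of all tested transcripts were, and 35 were called higher.

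Some of the transcripts that fell had been raised within the first 30 min. At that time, 80 of the 701 that fell (11.4%) were called higher than in untreated cells, where 0.916% of all tested transcripts were. Of the 1242 that rose, 9 (0.725%) were called higher at 30 min. At a mean of 100 CPM or more, 28.4% of the 67 that fell were called higher at 30 min, against 9.85% of all tested at that level. The count of 80 rested on few libraries, with the transcripts that fell called anew in each fit. It was 4 without untreated replicate 2, 9 without 2 h replicate 1 or 2, and at most 59 without any other single library except 30 min replicate 1 (109) and 4 h replicate 3 (86). Without the replicate number in the fit it was 6.

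**Figure D4:**
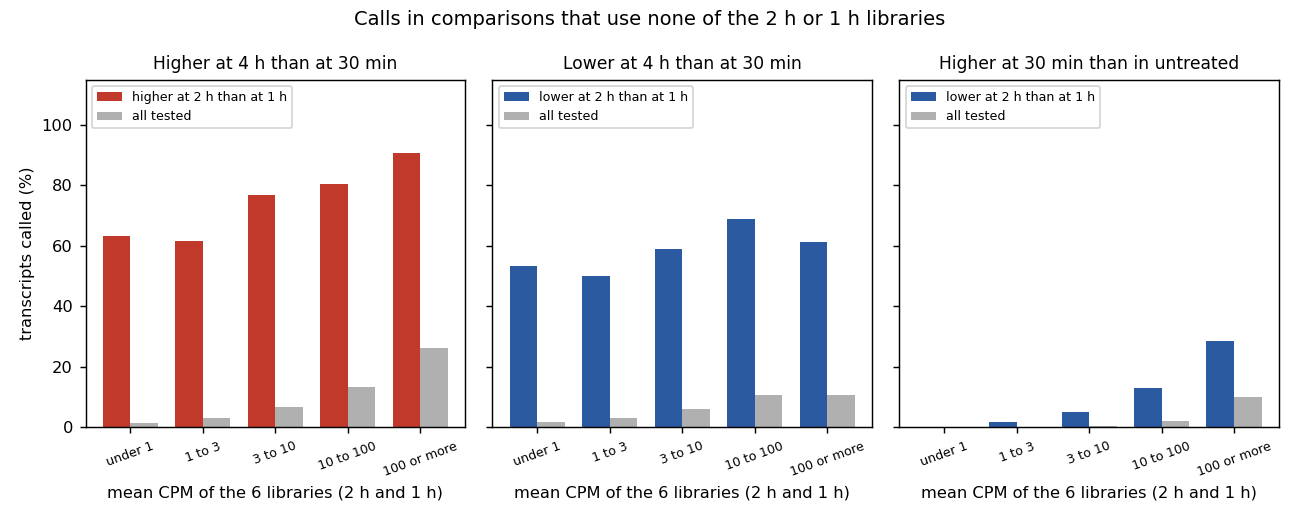
Percent of transcripts called (edgeR adjusted p under 0.05) in comparisons that use none of the 2 h or 1 h libraries, by mean CPM over the 6 libraries. Coloured bars are transcripts that rose (red) or fell (blue) between 1 h and 2 h and grey bars all tested transcripts at that level. At 10 to 100 CPM the bars are 80.4% and 13.1% for higher at 4 h than at 30 min, 68.9% and 10.5% for lower at 4 h than at 30 min, and 12.9% and 2.01% for higher at 30 min than in untreated cells.

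For some transcripts the log2 change over this hour differed from that over a neighbouring interval. The intervals are of unequal length and the changes were not divided by time, so these are differences in size and not in rate. The step from 1 h to 2 h differed from the step from 2 h to 4 h for 126 transcripts (0.273% of all tested; edgeR test of the difference between the steps). For 92 (0.199%) the earlier step was the more positive, and 69 of these were among the 1242 that rose. The 92 had a median level of 43.3, 56.0 and 43.0 CPM in replicates 1, 2 and 3 at 2 h, against 11.5, 14.2 and 10.9 CPM at 1 h, and of 18.6, 18.3 and 14.5 CPM at 4 h. This is the form of a pulse near 2 h. The other 34 (0.0736%) had the form of a trough, with a median of 8.60, 5.01 and 5.29 CPM at 2 h, against 41.7, 20.1 and 22.9 CPM at 1 h, and of 44.7, 27.8 and 22.9 CPM at 4 h. Both steps share the 2 h libraries, so any deviation of those libraries appears as such a form.

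The step also differed from the one between 30 min and 1 h, for 42 transcripts (0.0909% of all tested). All 42 were among the calls of 2 h against 1 h, 31 that rose (0.0671% of all tested) and 11 that fell (0.0238%). The 31 had a median of 122, 129 and 76.6 CPM at 2 h, against 14.1, 10.2 and 8.55 CPM at 1 h, with 26.2, 29.0 and 16.2 CPM at 30 min and 238, 204 and 126 CPM at 4 h. The 11 had a median of 14.1, 10.2 and 9.99 CPM at 2 h, against 109, 78.7 and 68.3 CPM at 1 h, with 36.9, 29.5 and 39.8 CPM at 30 min. Both counts of differing steps depended on nearly every library. Leaving out any 1 library other than 4 h replicate 3 reduced the 126 to 65 or fewer and the 42 to 25 or fewer. Without 2 h replicate 2 both were 0 (edgeR; unadjusted p under 0.05 for 4084 and 4489 transcripts), and without the replicate number in the fit they were 0 and 1 (unadjusted for 2804 and 2722). DESeq2 on all libraries called 1667 and 1730.

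**Figure D5:**
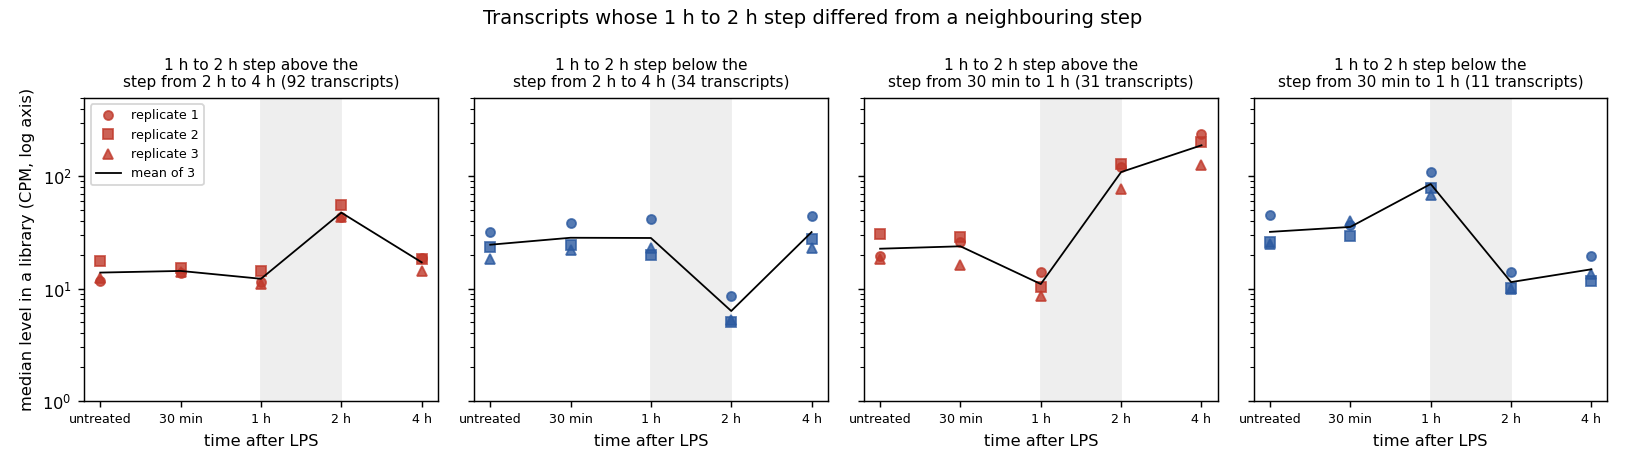
Median CPM in each library, on a log axis, of transcripts whose step from 1 h to 2 h differed from the step from 2 h to 4 h (92 and 34 transcripts, the 2 panels on the left) or from the step from 30 min to 1 h (31 and 11 transcripts, the 2 panels on the right). Symbols are replicate numbers, lines join the means of 3 and the grey band marks the hour from 1 h to 2 h. The 92 stood at 43.0 to 56.0 CPM at 2 h, against 10.9 to 14.2 CPM at 1 h, and at 14.5 to 18.6 CPM at 4 h.

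Calls were more frequent among long transcripts and among those with many counts. The median length was 2677 nt for those that rose and 2931 nt for those that fell, against 2088 nt for all tested. In 5 bins of nearly equal size by length, the share that rose was 1.59% in the shortest (294 to 774 nt), 2.18%, 2.69%, 3.44% and 3.54% in the longest (from 3842 nt). The share that fell was 0.79%, 0.973%, 1.43%, 1.94% and 2.46% over the same bins. By level, 6.43% of transcripts with 10 to 100 CPM rose and 3.58% fell, against 0.678% and 0.457% of those with 1 to 3 CPM. Longer transcripts collect more counts, and the part of depth in these shares was not tested. Of the 1242, 41 had counts identical in all 15 libraries to those of another tested transcript, as did 14 of the 701, so the calls hold 1221 and 694 distinct profiles.

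The number of calls depended on each of the 6 libraries. It was 340 higher and 96 lower without 1 h replicate 1, 448 and 227 without 1 h replicate 2, and 404 and 217 without 1 h replicate 3. Without 2 h replicate 1, 2 or 3 it was 533 and 117, 370 and 107, or 765 and 387. Of other libraries, leaving out untreated replicate 1 or 30 min replicate 3 reduced those lower to 414 and 435. A fit of the 6 libraries alone, which leaves few degrees of freedom, called 0 (unadjusted p under 0.05 for 6519 transcripts), and DESeq2 called 2816 higher and 2483 lower. Kallisto divides reads among isoforms, and whether a transcript changed because its gene did or because the division did was not tested.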

How the data were processed

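Per the submitters' processing notes, the authors quantified transcripts with kallisto 0.44.0. For every library, made unstranded per the labels, the authors deposited estimated counts and TPM of 113193 transcripts. Neither annotation release nor genome build is stated in the sources read here. Estimated counts were rounded and tested with edgeR 4.0.16 (R 4.3.3): TMM scaling, filterByExpr (minimum count 10, minimum total 15), quasi-likelihood test, Benjamini-Hochberg adjustment over 46186 transcripts, all 15 libraries in 1 fit with terms for group and replicate number. SE is the log2 fold change divided by the root of F. The number pairs the libraries: all 30 same-numbered pairs correlated in their deviations from group means (0.216 to 0.483). Gene-level sums and gene lists were planned, but 0 identifiers matched the reference table of 49997 genes, so transcripts were tested and no list or sequence is given. Named transcripts were the 2 largest rises and 2 largest falls among calls with at least 10 CPM in the higher group, groups apart and a count in every library of the lower group. DESeq2 1.42.0 and limma 3.58.1 on log2(TPM + 1) and log2(TPM + 0.1) served as alternatives. The comparison and the classes were chosen with earlier results of these data known. Fits were tested on simulated data that held no replicate effect, so this did not check the replicate term.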

Additional observations from a re-analysis of the deposited data

Results flagged for a closer look

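The tests of the difference between neighbouring steps singled out results because the log2 change over the hour from 1 h to 2 h was not that over the interval beside it, which differs in length. For 126 transcripts it differed from the step between 2 h and 4 h, and 31 of these were called in neither direction between 2 h and 1 h. Of the 69 that rose and were called here, 22 were also called lower at 4 h than at 2 h, where 0.491% of all tested were. Of the 26 that fell, 17 were called higher at 4 h than at 2 h, where 0.338% of all tested were. The difference between the steps contains the step from 2 h to 4 h, so the choice favoured these calls. For 42 transcripts it differed from the step between 30 min and 1 h.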

How the results depend on the processing

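With no replicate block, 150 transcripts were higher and 45 lower at 2 h. Of those higher, 2 were already raised at 1 h, 102 were new at 2 h and 129 were also higher at 4 h than at 30 min. Of those lower, 14 had been raised at 1 h, 20 were lowered below untreated cells at 2 h and 33 were also lower at 4 h than at 30 min. The step differed from the later and the earlier one for 0 and 1. In the same order, DESeq2 gave 2816, 2483, 181, 1517, 1918, 669, 1199, 1460, 1667 and 1730, and an adjusted p under 0.01 gave 316, 84, 6, 231, 274, 11, 46, 56, 2 and 1. Library size alone gave 708 higher, 388 lower, 14 already raised, 428 new, 570 also higher later, 77 raised before falling, 208 lowered below untreated cells, and 3 and 4 differing steps. No filter on low counts gave 377 lower, 26 already raised, 90 raised before falling, 151 lowered below untreated cells, 243 also lower later, and 36 and 21 differing steps. At least 50 counts in 3 libraries gave 78 already raised, 267 raised before falling, and 223 and 181 differing steps. limma on log2(TPM + 1) gave 247 raised before falling, 539 lowered below untreated cells, 743 also lower later and 65 for the earlier step, and on log2(TPM + 0.1) 27 already raised and 23 for the later step. Library size without the most abundant transcript, an alternative chosen after seeing the data, gave 21 already raised, 536 new, 483 lowered below untreated cells and 74 for the later step. The 6 libraries alone gave 0 higher and 0 lower.

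Leaving out 1 library or all libraries of 1 replicate number gave 0 to 1370 higher, 0 to 865 lower, 0 to 64 already raised, 0 to 930 new, 0 to 1054 also higher later, 0 to 187 raised before falling, 0 to 419 lowered below untreated cells, 0 to 541 also lower later, and 0 to 131 and 0 to 74 differing steps. The highest counts came without 4 h replicate 3, in which the most abundant transcript took 41.2% of the counts. The lowest counts of higher and lower without a single library were 340 and 96. Without a replicate number both were 0 (edgeR, unadjusted p under 0.05 for 4546, 6335 and 7217 transcripts). The cause of these shifts was not tested. No setting called a transcript in the direction opposite to the reported one. The 4 named transcripts kept their direction in all 30 alternatives and passed the threshold in 24, 20, 20 and 18 of them. TMM without the most abundant transcript gave 1140 higher and 757 lower.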
